A study of Camellia sinensis with 9 samples.

Results

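Flower and leaf of the tea plant, Camellia sinensis, were compared by the counts of their miRNAs. Of the 9 small RNA libraries of the series, 6 entered the comparison, flower1, flower2 and flower45 against leaf1, leaf23 and leaf41. The 3 root libraries were not compared, but they entered the filter on low counts, the scaling and the estimate of spread. Organ was the only stated difference between the groups, and no treatment that sets them apart is given. The labels give no cultivar, age or developmental stage. Nor do they say if each library was made from its own plant, and the p-values reflect spread among these libraries alone, part or all of which may be technical. The table names 371 miRNAs with 341 distinct mature sequences, and 258 of these had reads in flower or leaf. Each distinct sequence was counted once, and names that share a sequence are joined by a slash. Because only miRNAs are listed, the organ labels could not be checked against marker genes.

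miRNAs are short RNAs cut from hairpin precursors, and in plants they pair closely with target mRNAs, which are then cleaved or less translated. A hairpin yields a 5p and a 3p strand, of which usually 1 is loaded into an ARGONAUTE protein and the other is mostly degraded. Many conserved plant families act on transcription factors of development. In Arabidopsis, miR156 represses SPL genes and holds plants in the juvenile state, miR172 represses AP2-like genes that delay flowering and shape floral organs, and miR390, loaded by AGO7, starts the production of small RNAs from TAS3 that act on auxin response factors.

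Selected sequences of the families described below, among them those with the largest differences in each direction and related forms for comparison, are printed from the deposited table, in RNA letters from 5′ to 3′, with the seed (bases 2 to 8) in capitals and with family members placed together so that shared and shifted seeds can be seen.
miR390b_5p: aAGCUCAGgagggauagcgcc
miR390a_5p: aAGCUCAGgagggauagcgccu
miR390b_3p: cGCUAUCUauccugaguuuca
MIR172l_3p: gGAAUCUUgaugaugcugcag
miR172a_3p: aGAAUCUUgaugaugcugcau
miR172f_3p: uGGGAAUCcugaugaugcugc
miR171h_3p: uGAUUGAGccgugccaauauc
miR171c_3p: uUGAGCCGugccaauaucgcg
MIR171z_5p: uAUUGGCCugguucacucaga
miR167c_5p/miR167h_5p: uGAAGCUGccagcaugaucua
miR167b_5p: uGAAGCUGccagcaugaucuag
miR167e_5p: uGAAGCUGccagcaugaucug
miR156a_5p: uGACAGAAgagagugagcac
miR156b_5p/MIR156j_5p: uGACAGAAgagagugagcaca
miR156h_5p: uUGACAGAagagagagagcac
miR156f_3p/MIR156l_3p: uGCUCACUucucuucugucagc
MIR156j_3p: uGUUCACUucucuucugucagu
miR535a_5p/miR535c2_5p: uGACAACGagagagagcacgc
miR535d_5p: uGACGAUGagagagagcacgc
MIR391a_5p: aCGCAGGAgagaugaugccaa
miR4376_5p: aCGCAGGAgagaugaugcc
miR828a_5p: uCUUGCUCaaaugaguauucca
miR396a_5p/MIR396r_5p: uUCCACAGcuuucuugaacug
miR396a_3p/MIR396g-3p: gUUCAAUAaagcugugggaaa
The miR390 5p forms share the seed AGCUCAG, the miR167 forms GAAGCUG, and miR156a_5p and miR156b_5p GACAGAA. MIR172l_3p and miR172a_3p share GAAUCUU, whereas miR172f_3p has GGGAAUC. The seed of miR156h_5p, UGACAGA, is shifted against that of miR156a_5p.

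The distinct sequences summed to 876770 to 1073284 counts per flower library and 476517 to 530334 per leaf library. Levels are given below as CPM, counts per 1000000 counts of these sequences after TMM scaling, which corrects for differences in composition, and 3 counts equalled 3.57 to 5.95 CPM in these 6 libraries. Libraries are listed in the order flower1, flower2 and flower45, then leaf1, leaf23 and leaf41. Leaf41 stood apart from the other leaf libraries. Across the 129 sequences tested, which share their libraries and are not replicates, log2 CPM correlated at 0.939 to 0.962 between flower libraries and at 0.948 between leaf1 and leaf23, but leaf41 reached 0.773 with leaf1, 0.810 with leaf23 and 0.791 with the root library root33. Leaf41 was over 4-fold above the mean of the other leaf libraries for 33 sequences and over 4-fold below for 15, while leaf1 and leaf23 were over 4-fold apart for 11. Results are therefore given with and without leaf41.

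A total of 47 of the 129 sequences that passed a filter on low counts differed between flower and leaf at an adjusted p under 0.05 (36.4%, edgeR quasi-likelihood test with Benjamini-Hochberg adjustment, here termed called). Of these, 22 were higher in flower (17.1% of those tested) and 25 lower (19.4%). Called changes were large, and 24 of the 47 exceeded 16-fold, 12 in each direction. The median log2 difference over all 129 sequences was -0.12 with TMM scaling. It became -0.33 by DESeq2 size factors, -0.52 by library totals and 0.46 by the authors' own divisor (131 tested). It was -1.16 when every named row was counted, including rows that share a sequence (155 tested). Calls were repeated under these 5 settings, termed scalings below, although the last changes what is counted. Under all of these, 16 sequences were higher and 21 lower. The split was 22 and 25 with TMM, 23 and 27 with DESeq2 size factors, and 20 and 30 with library totals. It was 30 and 21 for the authors' divisor, and 20 and 48 when every row was counted. The flower and leaf libraries did not overlap for 43 of the 47 called sequences and for 60 of the 129 tested (46.5%), with flower above in 34 and leaf above in 26. A level in whole organs cannot tell apart fewer cells that make a miRNA from less of it per cell.

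**Figure D1:**
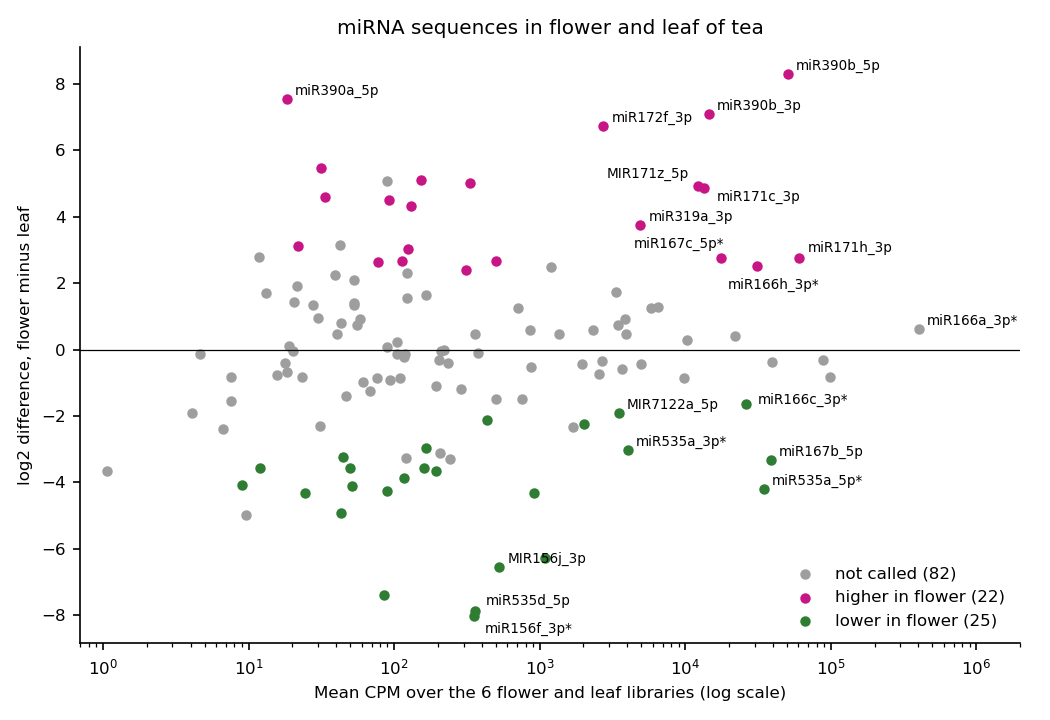
The log2 difference between flower and leaf (vertical) is plotted against the mean CPM over the 6 libraries (horizontal, log scale) for the 129 tested sequences, 1 point each, with an asterisk on names that share their sequence with other names. The 22 higher and 25 lower sequences reach up to miR171h_3p at a mean of 60464 CPM, the extremes are miR390b_5p at 8.30 and the joint miR156f_3p at -8.03, the 3 most abundant sequences, miR166a_3p, miR159a_3p and miR167e_5p, were not called, and the fitted value of miR390a_5p, which had no leaf read, depends on the prior count.

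The miR390 family showed the largest difference. Its main strand miR390b_5p, which starts with A as AGO7-bound miR390 does in Arabidopsis, stood at 95095, 95267 and 112138 CPM in flower and 246, 273 and 441 in leaf, with all flower libraries far above all leaf libraries. The difference was 315-fold (log2 8.30 ± 0.68 SE, edgeR adjusted p = 2.42e-05). It made up 8.47% ± 0.96 of the reads in flower, as the third most abundant sequence, against 0.036% ± 0.014 in leaf, where it ranked 51st (SD, n = 3). Its opposite strand miR390b_3p moved the same way, from 209.8 ± 70.2 CPM in leaf to 28885 ± 18989 in flower (log2 7.10 ± 0.90 SE, edgeR adjusted p = 3.36e-04).

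A rarer form, miR390a_5p, is the sequence of miR390b_5p with 1 more base at its 3′ end. It had 24, 31 and 32 reads in the flower libraries and 0 in every leaf library, which is at least 6.61-fold higher in flower when leaf is set to 3 counts per library (edgeR adjusted p = 8.69e-04). These 3 sequences were called under all 5 scalings and with each of the 9 libraries left out in turn. The other listed strand, miR390a_3p/MIR390e-3p, stood at 93.1, 91.5 and 46.3 CPM in flower and 19.8, 50.4 and 16 in leaf, so that leaf23 lay above flower45, and was not called (log2 1.42 ± 0.70 SE, edgeR adjusted p = 0.14).

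All 6 tested miR172 sequences were called, beside 36.4% of all 129 tested, 3 in each direction, and this held under all 5 scalings. The 9 other listed forms did not pass the filter on low counts. This filter keeps a rare sequence that has enough reads in 1 organ alone, which makes a call likelier. MIR172l_5p had 29, 59 and 64 reads in flower and 3, 0 and 1 in leaf, and miR172g_5p 1, 0 and 4 and 32, 30 and 12. The number called thus depends in part on the filter. Highest was miR172f_3p, with 4872, 6912 and 4421 CPM in flower and 57.5, 29.1 and 63.9 in leaf. It carried most miR172 reads of flower and was 107-fold higher there (log2 6.74 ± 1.57 SE, edgeR adjusted p = 0.00858). MIR172l_3p stood at 176 ± 89.3 CPM in flower and 7.62 ± 4.35 in leaf (log2 4.51 ± 0.83 SE, edgeR adjusted p = 0.0035), and MIR172l_5p followed at log2 4.59, a call lost without flower45. In the other direction, miR172a_3p was at 10.9, 13.1 and 20.4 CPM in flower and 355, 248 and 55.9 in leaf (log2 -3.88 ± 0.82 SE, edgeR adjusted p = 0.00625). Its leaf level was thus lowest in leaf41, yet still above all flower libraries. Its opposite strand miR172a_5p (log2 -3.56) and miR172g_5p (log2 -4.32) were lower in flower too, calls lost without flower1 and, for miR172a_5p, also without flower2 or leaf1. Thus the 3p strands of miR172a and MIR172l, which carry the same seed, were called in opposite directions.

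In the miR171 family, which acts on GRAS genes of the HAM type in Arabidopsis, 4 of 15 tested sequences were higher in flower and none lower. The share of higher sequences was 26.7%, beside 17.1% over all 129 tested, and 3 of the 4 were called under all 5 scalings. The most abundant, miR171h_3p, stood at 133725, 92531 and 90063 CPM in flower and 15238, 11551 and 19673 in leaf (log2 2.77 ± 0.30 SE, edgeR adjusted p = 1.22e-04). It was the second most abundant flower sequence at 8.94% ± 2.68 of reads and the ninth in leaf at 1.71% ± 0.55 (SD, n = 3). The groups did not overlap. Larger ratios were seen for miR171c_3p, at 26071 ± 12844 CPM in flower and 891 ± 56.1 in leaf (29.3-fold, edgeR adjusted p = 0.00516), and for MIR171z_5p, at 23815 ± 8111 and 785 ± 683 (30.3-fold, edgeR adjusted p = 0.00777). MIR171z_5p had more reads in leaf41 than in the other leaf libraries (199, 200.0 and 985), and without leaf41 its log2 difference was 6.03 in place of 4.92. The fourth, MIR171r_3p, was rare (45, 30 and 20 reads in flower, 5, 0 and 2 in leaf) and lost its call when any 1 flower library was left out.

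**Figure D2:**
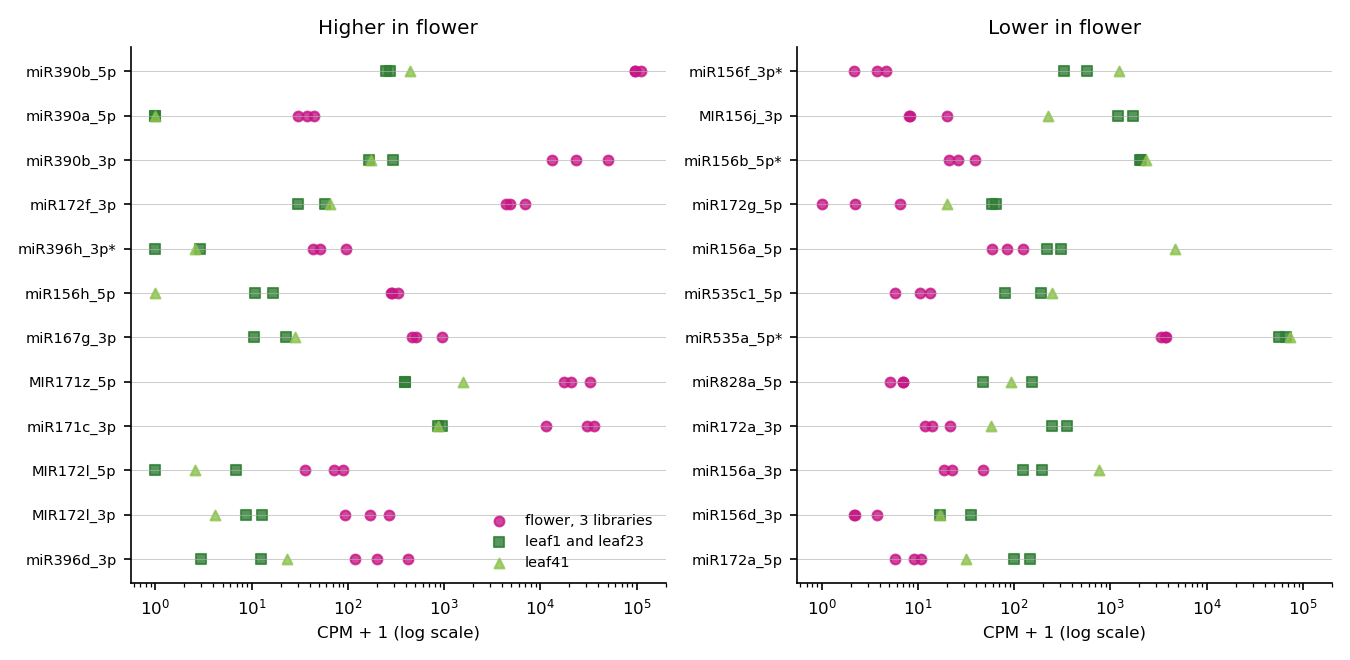
CPM + 1 (log scale) is shown in each library for the 12 called sequences with the largest difference in each direction, at a mean of at least 10 CPM and with no overlap between organs (circles flower, squares leaf1 and leaf23, triangles leaf41). All flower libraries lie to 1 side of all leaf libraries for each sequence, flower libraries are several-fold apart for some, such as miR390b_3p at 23358, 50024 and 13273 CPM, and leaf41 lies away from the other leaf libraries for several, such as miR156a_5p at 4728 CPM.

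Within the miR167 family, which acts on auxin response factors, forms that differ only at the 3′ end went in opposite directions. The form of 21 nt, miR167c_5p/miR167h_5p, stood at 26326, 17727 and 48660.2 CPM in flower and 5808, 2456 and 5387 in leaf (log2 2.76 ± 0.55 SE, edgeR adjusted p = 0.00504). The form of 22 nt, miR167b_5p, is the same sequence with 1 more base and stood at 8012, 5741 and 7342 CPM in flower and 76738, 59629.5 and 73923 in leaf (log2 -3.32 ± 0.29 SE, edgeR adjusted p = 2.63e-05). Neither overlapped between organs, and both were called under all 5 scalings and in all 9 leave-outs. Of the reads of this pair, the shorter form took 79.7% ± 6.25 in flower and 5.93% ± 1.71 in leaf (SD, n = 3). The exact two-sided permutation p was 0.1, the smallest that 3 libraries against 3 can give, and 0.233 adjusted over the 14 pairs described next. Among 14 pairs of tested sequences that overlap by 17 or more bases with starts at most 2 bases apart, this was the single pair with opposite calls. Whether the forms come from 1 locus or several cannot be read from the table.

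The most abundant member, miR167e_5p, carries the same seed and was not called, at 78521 ± 34318 CPM in flower and 98300.5 ± 24302 in leaf (log2 -0.32 ± 0.52 SE, 0.25 with the authors' divisor). Among opposite strands, miR167g_3p was 32.5-fold higher in flower (edgeR adjusted p = 0.00516) and its shorter form miR167f_3p 6.33-fold (adjusted p = 0.0132), a call lost without flower1, flower45 or leaf23. The strand miR167e_3p was 7.77-fold lower (edgeR adjusted p = 0.00965), with the call lost without flower2. Thus the family had 3 sequences higher and 2 lower of 9 tested (33.3% and 22.2%, beside 17.1% and 19.4% over all tested sequences).

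Many sequences of the miR156 and miR535 families, which are similar and act on SPL genes in other plants, were lower in flower. Of 13 tested miR156 sequences, 7 were lower (53.8%), 1 was higher and 5 were not called. Of 6 tested miR535 sequences, 5 were lower (83.3%) and none higher, beside 19.4% lower over all 129 tested. These counts depend in part on the filter, which some passed through leaf or root alone. The miR156 total and its most abundant strand were not called, as described below. The main miR535 strand, miR535a_5p/miR535c2_5p, stood at 3323, 3779 and 3685 CPM in flower and 56616, 67280.4 and 72899 in leaf, 18.2-fold lower in flower (log2 -4.19 ± 0.30 SE) and the smallest adjusted p of all sequences (edgeR, 1.37e-05). It was the fifth most abundant sequence of leaf at 7.24% ± 1.38 of reads and took 0.301% ± 0.0064 in flower (SD, n = 3). Its opposite strand was lower as well (log2 -3.02 ± 0.54 SE, edgeR adjusted p = 0.00323), as was miR535c1_5p, a form of 20 nt within it that had 4, 8 and 9 reads in flower and 40, 97 and 154 in leaf (18.9-fold lower).

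For miR156, the strand of 21 nt miR156b_5p/MIR156j_5p stood at 25.4, 20.2 and 38.2 CPM in flower and 2086, 2047 and 2336 in leaf (log2 -6.26 ± 0.64 SE, edgeR adjusted p = 8.90e-05). Leaf libraries lay close together and far above flower. The 3p strands miR156f_3p/MIR156l_3p and MIR156j_3p were lower too (261-fold and 92.5-fold, edgeR adjusted p = 1.91e-04 and 0.0014), as were miR156a_3p and miR156d_3p (12.5-fold and 11.9-fold), the former called in all leave-outs but that of flower1. The exception was miR156h_5p, with 329, 278 and 283 CPM in flower and 9.91, 15.5 and 0 in leaf (log2 5.12 ± 1.11 SE, edgeR adjusted p = 0.00686). The most abundant miR156 strand, miR156g_5p, has the same shifted seed as miR156h_5p and was not called. It stood at 4263 ± 1098 CPM in flower and 5752 ± 4069.6 in leaf (log2 -0.43 ± 0.53 SE, 0.09 with the authors' divisor).

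Some calls of these families rested on leaf41. Reads of miR535d_5p numbered 2, 5 and 0 in flower and 2, 2 and 1340.0 in leaf, and those of MIR156n_3p 1, 1 and 0 and 0, 1 and 317. Without leaf41 their log2 differences were -0.36 and -0.14 (edgeR adjusted p = 0.821 and 0.97), against -7.88 and -7.38 with it, and both calls were also lost without any 1 of the flower libraries, that of MIR156n_3p without root23 too. Likewise miR156a_5p had 216, 302 and 4728 CPM in leaf and 88.1 ± 33.4 in flower, and it lost its call without leaf41 (log2 -1.48, edgeR adjusted p = 0.0726), as did miR535b_3p (0.133). Both were also lost without flower1 or flower2, and miR535b_3p without root23. In root these sequences stood at 1241 ± 122, 116 ± 4.44, 3080.4 ± 799 and 620.3 ± 297 CPM respectively (SD, n = 3), each above leaf1 and leaf23 and below leaf41. Why leaf41 differs was not tested.

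**Figure D3:**
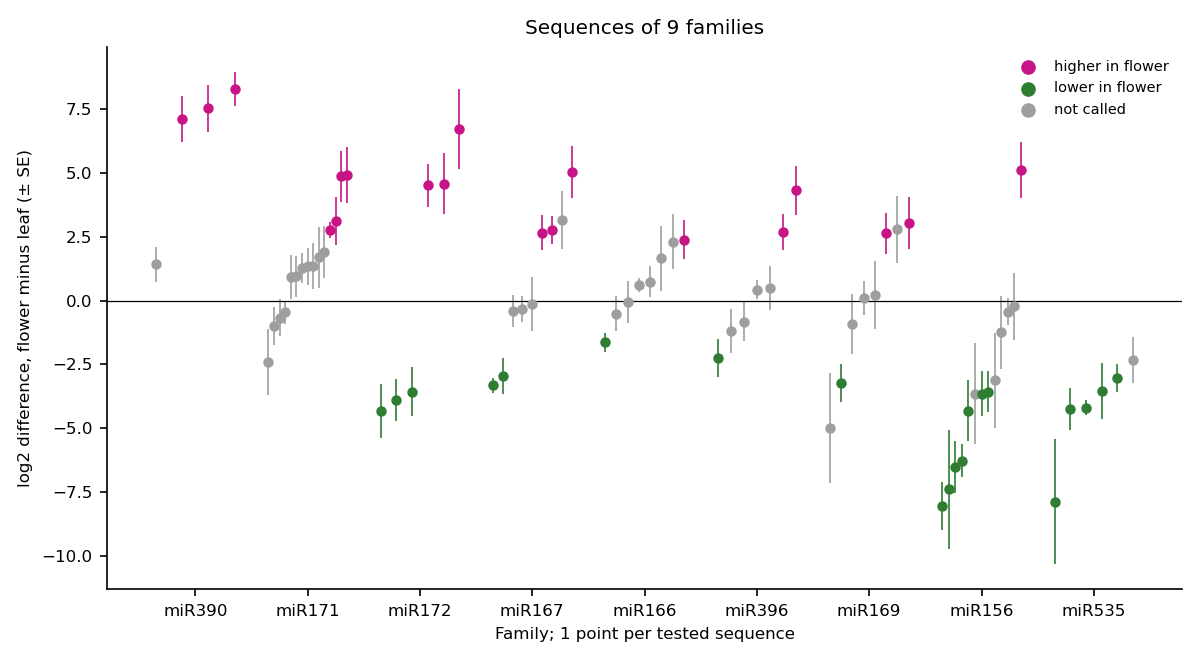
The log2 difference between flower and leaf (± SE) is shown for each tested sequence of 9 families, 1 point per sequence, coloured by call. All called miR390 and miR171 sequences are higher and all called miR535 sequences lower, while miR172, miR167, miR166, miR396, miR169 and miR156 hold called sequences on both sides.

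Among the families of organ patterning, miR319a_3p, whose targets are TCP genes of leaf and petal growth, was higher in flower with wide spread. It stood at 2105, 9494 and 15730.3 CPM in flower and 43.6, 613 and 1363 in leaf (log2 3.76 ± 1.11 SE, edgeR adjusted p = 0.0263). The lowest flower and the highest leaf library were close, and the call was lost without flower2, flower45 or leaf23. The other tested miR319 sequence, MIR319d_5p, has the same seed and was not called (59, 363 and 208 reads in flower, 2, 138 and 1211 in leaf). Nor was the miR319 total with all libraries (log2 2.61 ± 1.16 SE, edgeR adjusted p = 0.133). For miR166, which acts on class III HD-ZIP genes of organ polarity, the most abundant sequence of all, miR166a_3p/miR166b_3p, took 40.6% ± 4.48 of reads in flower and 34.9% ± 3.72 in leaf (SD, n = 3) and was not called (log2 0.62 ± 0.27 SE, edgeR adjusted p = 0.105; -0.41 with every row counted).

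Less abundant miR166 sequences differed. The joint sequence of miR166h_3p, MIR166o_3p and MIR845h-3p stood at 54666, 51782 and 53527 CPM in flower and 5495, 5317 and 17271 in leaf (log2 2.51 ± 0.47 SE, edgeR adjusted p = 0.00395). Because it carries names of different families, it was left out of family totals. In contrast miR166c_3p/miR166l_3p, with the seed CUCGGAC, was lower in flower at 12402, 9771 and 15864 CPM against 40298, 40856 and 37092 in leaf (log2 -1.64 ± 0.36 SE, edgeR adjusted p = 0.00721). The strand miR166e_5p was higher (log2 2.39), but its call was lost in 6 of 9 leave-outs, all but those of root13, root33 and leaf41.

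For miR396, which acts on growth-regulating factors, miR396d_3p was 20.1-fold higher in flower (edgeR adjusted p = 0.00735) and miR396a_3p/MIR396g-3p 6.41-fold higher (0.0144), whereas miR396a_5p/MIR396r_5p was 4.74-fold lower (0.0359). The last call was lost without leaf41 (adjusted p = 0.133), flower1, flower2 or any root library, and that of miR396a_3p without flower1, flower2, leaf1 or leaf23. The sequence listed both as miR396h_3p and as miR403a_3p stood at 62.2 ± 28.1 CPM in flower and 1.18 ± 1.03 in leaf (edgeR adjusted p = 0.00395), and its family is not settled by the table. The main miR396 strand, miR396b_5p, was not called (log2 0.42 ± 0.38 SE; -0.59 with every row counted). For miR169, which acts on NF-YA genes, both strands of miR169d were higher (log2 3.05 and 2.64) and MIR169k_5p lower (log2 -3.23, edgeR adjusted p = 0.00808). The call of miR169d_5p was lost in all leave-outs but that of leaf41, and the call of miR169d_3p without flower2, flower45 or any leaf library.

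Lower in flower outside these families was miR828a_5p, which acts on R2R3-MYB genes, including regulators of anthocyanin, in other plants. It stood at 6.05, 5.94 and 4.09 CPM in flower and 151, 46.5 and 92.7 in leaf, 17.4-fold lower in flower without overlap (log2 -4.12 ± 0.67 SE, edgeR adjusted p = 0.00173). This call held under all 5 scalings and in all 9 leave-outs. MIR391a_5p, MIR7122a_5p and miR4376_5p, which belong to families related to miR390 in other plants, were all lower in flower, opposite to miR390. MIR391a_5p stood at 213, 120.0 and 155 CPM in flower and 920.1, 930.4 and 254 in leaf (log2 -2.11 ± 0.69 SE, edgeR adjusted p = 0.0359), and MIR7122a_5p at 1479 ± 833 and 5501 ± 1617 (log2 -1.90 ± 0.55 SE, adjusted p = 0.0237).

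The call of MIR391a_5p was lost in 8 of 9 leave-outs, all but that of leaf41, and that of MIR7122a_5p without root23, flower2 or leaf1. The sequence of miR4376_5p is contained in MIR391a_5p and had few reads (1, 0 and 1 in flower, 6, 19 and 2 in leaf, edgeR adjusted p = 0.0144), with the call lost without flower1, flower2 or leaf23. MIR1446a_3p had 2, 0 and 4 reads in flower and 87, 40 and 0 in leaf (edgeR adjusted p = 0.0414; 0.00395 without leaf41), so that leaf41 lay with flower, and its call was lost in all leave-outs but those of flower45 and leaf41.

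Grouped by role in other plants, the SPL and AP2 list (miR156, miR535, miR172) had the median furthest from that of all tested sequences. Of its 41 listed sequences 25 passed the filter, 15 of them lower and 4 higher in flower, with a median log2 difference of -3.57 beside -0.12 over all 129 sequences. Lower sequences made up 60% of those tested and higher ones 16%, beside 19.4% and 17.1% over all tested sequences, and each of these calls held under all 5 scalings. Among the lower calls, those of miR535d_5p, MIR156n_3p, miR156a_5p and miR535b_3p were lost without leaf41, and they are counted in these shares and the median. The 3 miR172 sequences among the lower ones and the 3p strands are also counted, whatever their role. The auxin list (miR160, miR167, miR390, miR393) had 6 higher and 2 lower of 18 tested, all of miR390 and miR167 (33.3% and 11.1%), with a median of 1.11. The organ patterning list (miR159, miR164, miR166, miR169, miR171, miR319, miR396) had 10 higher and 3 lower of 45 (22.2% and 6.67%), with a median of 0.62, and 5 higher and 2 lower were called under all 5 scalings. Its share of higher sequences was thus near that over all tested sequences.

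Some other lists had no called sequence, but each of these had few tested, beside 36.4% called over all 129. None of the 8 tested sequences of the silencing machinery list (miR162, miR168, miR403, which act on DCL1, AGO1 and AGO2) was called, with a median of -0.47, nor any of 5 in the copper list (miR397, miR398, miR408), 3 in the sulfate and phosphate list (miR395, miR399) and 3 in the list acting on NBS-LRR defence genes (miR482). The main AGO1 regulator miR168a_5p/MIR168f_5p stood at 34588 ± 11709.9 CPM in flower and 44466 ± 8781 in leaf (log2 -0.36 ± 0.36 SE; 0.19 with the authors' divisor). Among 14 tested sequences of less conserved families, 4 were lower (28.6%, beside 19.4% over all tested sequences) and none higher. Of these 4 calls, 1 held under all 5 scalings. The copper-linked MIR398c_3p varied more within organs than between them, at 275, 1641 and 13204 CPM in flower and 111, 430.3 and 7507 in leaf.

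Summed by family, 6 of 37 tested families were called (16.2%), 3 higher in flower (8.11%) and 3 lower (8.11%). miR390 took 10.7, 11.4 and 10.5% of reads in the flower libraries and 0.0444, 0.0665 and 0.0745% in the leaf libraries (log2 7.84 ± 0.56 SE, edgeR adjusted p = 7.07e-06). miR171 took 19.3, 12.4 and 10.6% and 2.34, 2.15 and 3.29% (log2 2.90 ± 0.38 SE, edgeR adjusted p = 4.05e-04). In both families every flower library lay above every leaf library. The miR172 total was also higher (log2 3.57 ± 0.64 SE, edgeR adjusted p = 0.00255), carried by miR172f_3p. miR535 took 0.454, 0.394 and 0.431% of flower reads and 6.76, 8.09 and 10.6% of leaf reads (log2 -3.91 ± 0.31 SE, edgeR adjusted p = 9.83e-06). Also lower were miR828 (log2 -4.07 ± 0.71 SE, edgeR adjusted p = 0.00255) and miR4376 (log2 -4.13 ± 1.18 SE, 0.0403), the latter lost in 8 of 9 leave-outs, all but that of leaf41.

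Family totals did not show the calls of single members, and in miR167 and miR156 the most abundant sequence was itself not called. The miR167 total was not called (log2 -0.50 ± 0.38 SE, edgeR adjusted p = 0.335), and its reads without scaling made up 18.9% ± 2.1 in leaf and 9.97% ± 4.44 in flower (SD, n = 3), without overlap. The miR156 total was not called either (log2 -1.27 ± 0.50 SE, edgeR adjusted p = 0.105), although 7 of its sequences were lower. It stood at 9089.8, 3957 and 4027 CPM in flower and 7390.4, 11116 and 22809 in leaf, and without leaf41 its log2 difference was -0.32 (edgeR adjusted p = 0.608).

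The makeup of the reads differed between organs. Sequences of 21 nt took 92.5, 89.9 and 91.6% of reads in flower and 71, 75.3 and 81.4% in leaf, and those of 22 nt 1.72, 1.06 and 1.49% and 9.89, 8.01 and 10.7%. Flower libraries were above all leaf libraries for 21 nt and below for 22 nt (exact two-sided permutation p = 0.1 for each, the smallest possible, and 0.167 adjusted over 5 lengths). On average 80.7% of the leaf reads of 22 nt were miR167b_5p. For 20 nt, leaf41 at 7.78% lay within the flower range (7.12% ± 1.6 in flower, 14.5% ± 5.91 in leaf, exact p = 0.2), and 91.2% of that class in leaf was miR159a_3p/miR159b_5p, which acts on GAMYB genes.

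By first base, which guides ARGONAUTE loading in plants, sequences starting with A took 8.83, 7.79 and 9.7% of reads in flower and 0.537, 0.474 and 0.261% in leaf. Those starting with U took 87% ± 0.373 and 96.1% ± 0.106 (SD, n = 3). Both separated the organs (exact two-sided permutation p = 0.1 for each, the smallest possible, also when adjusted over the 4 bases), and 96.5% of the flower reads that start with A were miR390b_5p. The 8 most abundant sequences held 80.6% of reads in flower and 85.4% in leaf, so that such shares rest on few sequences.

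**Figure D4:**
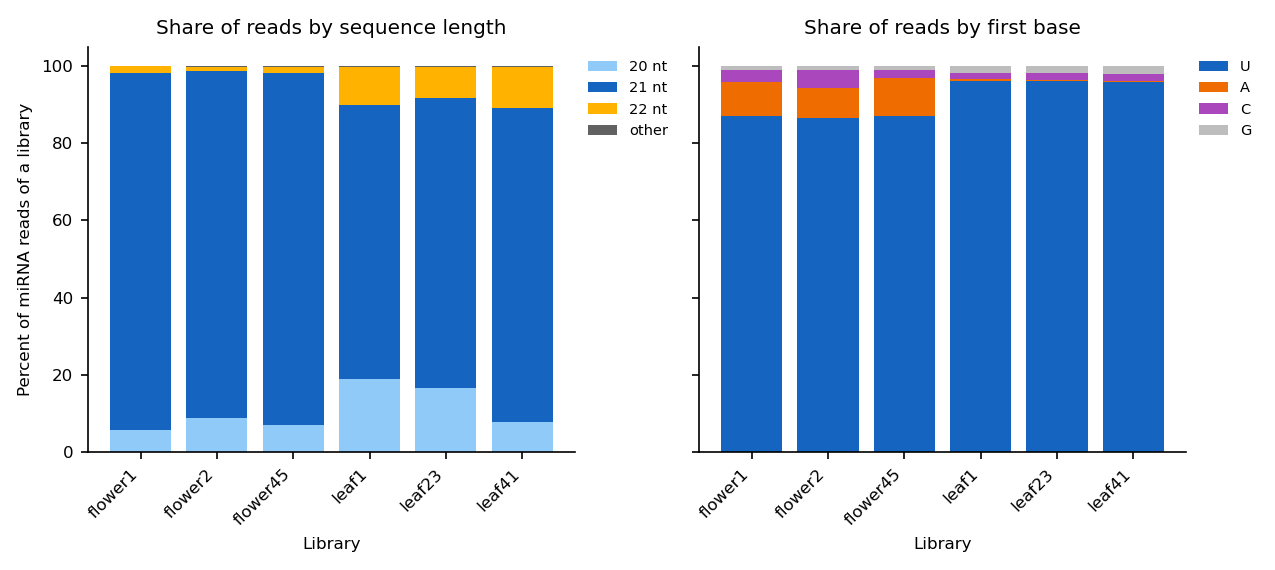
Stacked bars give the percent of the miRNA reads of each library by length of the sequence (left) and by first base (right), each distinct sequence counted once. The flower libraries hold 8.77% of reads starting with A against 0.424% in leaf on average, and the leaf libraries hold 9.54% of 22 nt against 1.42% in flower.

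Strand use differed for a few hairpins. The log2 ratio of 5p to 3p reads (with 1 count added to each) was compared for 47 hairpins, and 5 differed between organs (10.6%, limma with Benjamini-Hochberg adjustment at 0.05). The balance of the strands of miR396a differed between organs. Its 5p strand had 328, 913 and 468 reads in flower and 1200, 537 and 4153 in leaf, and its 3p strand 840, 956 and 343 in flower and 40, 60 and 133 in leaf. In flower 3p reads were in excess in flower1, about even with 5p reads in flower2 and fewer in flower45, whereas 5p reads were in excess in all leaf libraries (log2 difference -4.65 ± 0.75 SE, limma adjusted p = 0.00258). Both of its sequences are also listed under another name, so reads of other hairpins can enter.

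For miR171c, 3p reads exceeded 5p reads in both organs, by more in flower (log2 difference of the ratio -4.82 ± 0.77 SE, limma adjusted p = 0.00258), while its 5p strand had 2 to 8 reads per library. For miR167e, 5p reads exceeded 3p reads in both organs, by more in flower (2.63 ± 0.55 SE, limma adjusted p = 0.0117; 0.0549 without leaf23). The differences of miR167c (5.34, limma adjusted p = 0.000231) and miR390a (2.89, limma adjusted p = 0.0134) rest on a strand with 0 reads in 1 organ and depend on the added count. The latter was lost with 5 counts added and without flower45 or leaf23.

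Without leaf41, 61 of 141 tested sequences were called (43.3%), 35 higher and 26 lower in flower, and the median log2 difference was 0.35 in place of -0.12. Of the 47 sequences called with all libraries, 41 remained, 21 higher and 20 lower, and 14 higher and 6 lower ones were added. The added ones included miR394b_5p (212, 3243 and 3083 reads in flower, 19, 94 and 3332 in leaf), which acts on the F-box gene LCR in Arabidopsis, MIR160k_5p (829, 6970.0 and 4438 and 77, 507 and 2185), which acts on auxin response factors, and the sulfate-linked miR395_3p/miR395g_3p (713, 1711 and 2321 and 38, 7 and 614). In each of these leaf41 lay above leaf1 and leaf23 and within or near the flower range. Leaf libraries held fewer counts, however, and by share of reads leaf23 could lie close to flower1. The seed of MIR160k_5p took 0.106% in leaf23 and 0.0904% in flower1, and that of miR394b_5p 0.0197% and 0.0231%. Lower in flower without leaf41 were miR408_3p/miR408b_3p (7, 12 and 6 reads in flower and 17, 58 and 6 in leaf) and MIR408c_5p (52, 34 and 24 and 306, 368 and 4), whose targets are copper proteins.

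Among called sequences, 13 of 47 moved by over 1.5-fold without leaf41. Besides those named above, the log2 difference became 5.22 for miR396d_3p, 4.81 for miR319a_3p, 4.92 for miR169d_5p, 3.39 for the joint miR166h_3p, -2.51 for MIR169k_5p, -2.40 for miR156a_3p and -7.27 for miR156f_3p. Without flower45, 23 of the 47 moved by over 1.5-fold, all of them downward, and the median over all tested sequences went from -0.12 to -0.96. There miR390b_5p stood at log2 7.62 and miR535a_5p at -4.86. Each of the other 7 libraries moved 0 to 5 of the 47 that far when left out.

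Without leaf41, 17 families were called, 10 higher and 7 lower, and all 6 of those named above were among them. Added as higher were miR319, miR395, miR394, miR160, miR162, miR474 and miR166, and as lower miR159, miR391, miR408 and miR1446. Across the sequences, 14 higher and 12 lower were called under all 5 scalings and in all 9 leave-outs, among them the 3 miR390 strands, miR172f_3p, MIR172l_3p, miR171h_3p, miR171c_3p, both miR167 forms, miR156b_5p, miR156f_3p, MIR156j_3p, miR535a_5p, miR172a_3p and miR828a_5p.

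**Figure D5:**
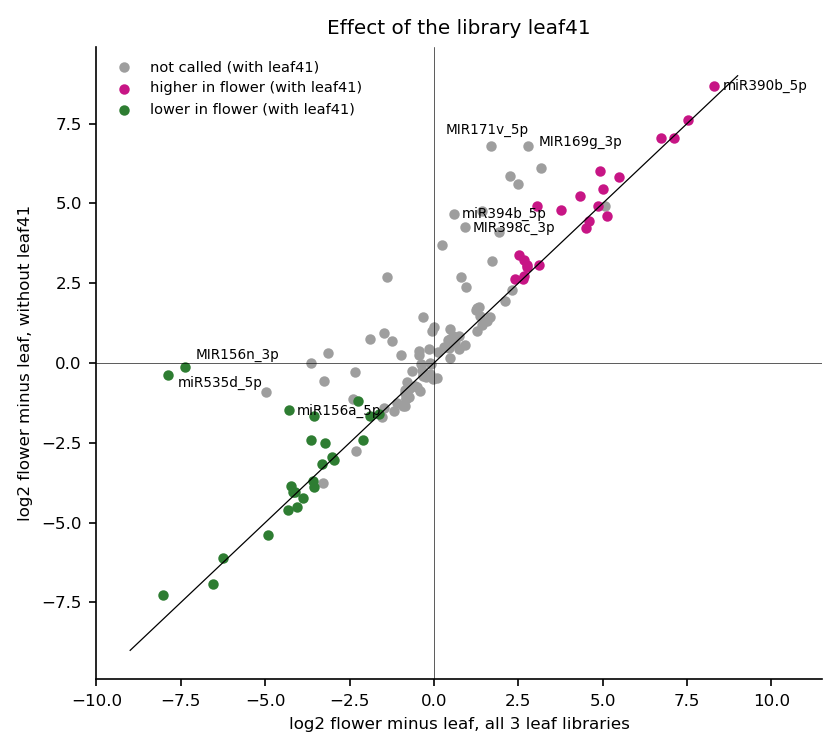
The log2 difference between flower and leaf without leaf41 (vertical) is plotted against that with all 3 leaf libraries (horizontal), 1 point per sequence tested in both, with a line of equality. Most called sequences lie near the line, such as miR390b_5p (8.69 without leaf41), while miR535d_5p and MIR156n_3p fall to near 0 and miR394b_5p rises from 0.58 to 4.67.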

How the data were processed

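TRIzol was used to extract total RNA, and after ribosomal RNA removal Illumina libraries were made, per the labels' protocols. How reads were trimmed, aligned and counted, and on which build, is not given in the sources used here. Per the file headers, the deposited table gives each named miRNA with its mature sequence, raw counts per library, and a normalised score (RPTM) that the authors rounded to whole numbers. The deposited score equals the count divided by 1 constant per library (2.11 to 2.25). It was used only to obtain that divisor, taken as library size in 1 alternative. The blank row (1, with no name and no counts) was left out. Genomic positions and targets were not analysed here.

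Rows of equal sequence, reading U and T alike, were joined and their counts taken once. The test was edgeR's quasi-likelihood F test (edgeR 4.0.16, R 4.3.3) with TMM scaling, after filterByExpr with organ as group, on a fit of all 9 libraries, with Benjamini-Hochberg adjustment at 0.05. The filter kept 129 sequences, which held 99.97% of counts. Family totals left out 4 sequences with 2 family names. Log2 ratios of 5p to 3p counts were tested with limma 3.58.1 for hairpins with a summed minimum of 10 counts. Standard errors of edgeR differences are the absolute log2 difference divided by the square root of F. Shares were compared with exact two-sided permutation tests. Alternatives were DESeq2 1.42.0, other scalings, no filter, only the 6 libraries, every row counted, a fold of at least 2, other pseudocounts and minimum counts, and each library left out. Bounds from 3 counts cover counting error only. Steps were tested on simulated data.

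Values are given for the 12 called sequences with the largest difference in each direction (mean CPM of at least 10, organs not overlapping), the 8 most abundant per organ, members of families with calls in both directions and called members of 9 lists, each of families that share a role. Sequences named for a call without leaf41 were chosen after their values were seen. The comparison, the lists and this rule were chosen with earlier results of these data known.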

Additional observations from a re-analysis of the deposited data

How the results depend on the processing

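No called sequence or family turned direction under another tool, scaling, filter or set of libraries, changed 1 at a time. Of the alternative values of called sequences, 680 kept their call and 112 lost it, and of those of called families 85 kept it and 10 lost it, all 10 of miR4376. The count of sequences higher in flower was 22, and 15 to 35 with each library left out (35 without leaf41). The count of lower ones was 25, and 14 to 27 with each library left out (14 without flower1, 15 without flower2), 41 with no filter on low counts and 48 with every row counted. With only the 6 flower and leaf libraries, 116 sequences were tested, with 15 higher, 26 lower and a median log2 difference of -0.65. Of the 47 called sequences 36 then remained, and miR4376_5p, MIR1446a_3p, MIR156n_3p and miR535d_5p were not tested. Families numbered 3 higher (3 to 10 over the leave-outs, 10 without leaf41) and 3 lower (2 to 7, 7 without leaf41), and the lower ones 8 with DESeq2 and 6 with its size factors or with library totals. Hairpins with a changed strand ratio numbered 5, and 3 (without leaf23) to 9 (without leaf41) over the leave-outs.

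With leaf41 left out under another scaling, an alternative chosen after seeing the data, sequences higher in flower numbered 42 with the authors' divisor. Families then numbered 8 higher and 7 lower with DESeq2 size factors, 8 and 8 with totals, and 10 and 6 with the authors' divisor, and with that divisor 2 of the 47 called sequences turned sign.

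Values of sequences and families that were not called turned sign as follows. With the authors' divisor, miR167e_5p stood at 0.25, miR168a_5p at 0.19, miR156g_5p at 0.0856 and the miR168 family at 0.11. With only the 6 libraries, miR166a_3p stood at -0.14, miR396b_5p at -0.30 and miR394b_5p at -0.11, and with every row counted at -0.41, -0.59 and -0.29, and MIR398c_3p at -0.0301. With no filter miR396b_5p was at -0.003. Leaving out libraries gave ranges of -1.34 to 0.0817 for miR167e_5p, -0.80 to 0.37 for miR156g_5p, -0.0416 to 0.78 for miR166a_3p, -1.71 to 4.25 for MIR398c_3p, -0.0401 to 4.67 for miR394b_5p, -0.0786 to 4.68 for the miR394 family and -0.0029 to 5.82 for miR474. The cause was not tested. No paired analysis was possible because flower and leaf share fewer than 2 replicate numbers. Leaf libraries held about as many counts as each other, and sequences with few reads, such as miR390a_5p and miR4376_5p, are limited by depth.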

Other observations

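Sequences seen in 1 organ and not in the other had few reads. Of the 258 distinct sequences with reads in flower or leaf, 43 had reads in flower and none in leaf, and 36 had reads in leaf and none in flower. The largest total over 3 libraries was 103 reads among the former and 16 among the latter. Reads in all 6 libraries were found for 113 sequences. The difference between the organs was thus one of amount for the abundant sequences.

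Length and first base of the tested sequences, each counted once whatever its reads, gave these counts beside 22 higher and 25 lower of 129. Of 17 tested sequences of 22 nt, 7 were lower in flower and 1 was higher, with a median log2 difference of -1.24, and of 86 of 21 nt, 14 were lower and 19 higher, with a median of -0.02. Of the 70 tested 3p strands, 14 were higher and 11 lower, and of the 55 tested 5p strands, 8 were higher and 14 lower. Another pair of end variants, miR167g_3p and the shorter miR167f_3p, were both called higher, and miR167g_3p took 77.2% ± 1.64 of their reads in flower and 37.7% ± 10.4 in leaf (SD, n = 3; exact two-sided permutation p = 0.1, the smallest possible, and 0.233 adjusted over 14 pairs). The large difference of MIR159c_3p (log2 5.07 ± 1.87 SE) was not called (edgeR adjusted p = 0.0586), with 0, 26 and 358 reads in flower and 3, 3 and 2 in leaf.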
